A study of Mus musculus with 18 samples.

Results

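The switchable base editor was set against the intact base editor with rapamycin present in both. The comparison took the 3 libraries of seBE under rapamycin against the 3 libraries of intact BE under rapamycin, 6 of the 18 libraries in the series, and covered 14985 expressed genes of 56748 gene IDs counted. All cells were RN2, an established mouse acute myeloid leukemia line that carries MLL-AF9 and NrasG12D, with no other genotype than WT in the labels. They were transduced with lentivirus and sorted on day 5, so each library is a sorted population rather than a clone. Both compared groups received 1 nM rapamycin for 24 h before sorting. The groups set beside them were intact BE and seBE with vehicle for 24 h, and 2 vehicle-labelled controls, nCas9 (a Cas9 nickase) and a catalytic mutant of the evoA1 deaminase in intact BE. Each group's 3 libraries are titled as biological replicates, with no word on separate cultures, and p-values then reflect only how far such libraries differ, which may be technical. The labels also leave unsaid whether the vehicle and rapamycin libraries of an editor came from 1 transduced population. The series asked how base editors affect gene expression in relation to their toxicity.

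A cytosine base editor joins a Cas9 nickase to a deaminase that converts cytosine to uracil in DNA. The deaminase here, evoA1, is an evolved form of APOBEC1. In a split-engineered base editor (seBE) the deaminase is made in separate pieces that come together when rapamycin bridges their FKBP and FRB domains, whereas the intact editor needs no drug. Rapamycin bound to FKBP12 also inhibits mTORC1, the kinase complex that couples amino acid and growth factor signals to protein, lipid and nucleotide synthesis. Among the transcriptional outputs known to lie downstream of mTORC1 are ATF4, which drives amino acid supply, and the SREBP factors, which drive sterol and fatty acid synthesis.

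The 6 libraries held 20044158 to 23284932 counts, within a range of 13835979 to 23284932 for the series. Replicate 3 of seBE under rapamycin stood apart from replicates 1 and 2, at -19.98 on the first principal component against 1.45 and 8.11. That value lay within the range of the intact BE libraries under rapamycin, -40.46 to -15.47. Its slope of counts on GC content, -0.169 in log2 per 10 percentage points, was also nearer to theirs (-0.161 to -0.068) than to those of seBE replicates 1 and 2 (0.114 and -0.035). Counts followed transcript length more steeply in intact BE, with slopes in log2 per doubling of length of 0.095, 0.058 and 0.079, than in seBE, with -0.017, 0.0033 and 0.036. The genes called higher in seBE were shorter and richer in GC than those called lower, with a median log2 length of 11.14 against 12.19 and a median GC content of 53.96% against 46.88%. Over all genes these medians were 11.53 and 49.27%. The part of length and GC in the results was not tested beyond a fit with both trends removed, which is given where it changes a result. RN2 identity genes were present in both groups, among them Hoxa9, Myb, Mpo, Elane and Ly6c2. Host Apobec1 and the genes of the drug target were measured from the mouse genome, and reads of the lentiviral constructs were not analysed here.

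Under rapamycin, 14 of the 29 genes on the ATF4 and amino acid supply list, Atf4 itself among them, were higher in seBE than in intact BE cells. Lower in seBE were 9 of 24 sterol genes, 6 of 24 myeloid surface and effector genes, and the immediate-early genes Egr1 and Egr3. In all, 703 genes passed an adjusted p of 0.05 (4.69% of those tested, edgeR's quasi-likelihood test with Benjamini-Hochberg adjustment). Of these, 305 were higher in seBE (2.04%) and 398 lower (2.66%). Counts of called genes in the lists below are to be read beside these shares. Most differences were small, with a median size of 0.40 on the log2 scale. Differences of 2-fold or more numbered 32 higher and 18 lower, of which 22 and 5 stayed under 5 CPM in the higher group (CPM here are counts scaled by edgeR to each library's TMM-adjusted size). The libraries of the 2 groups did not overlap for 679 of the 703 genes, and for 19.6% of all genes tested. At an unadjusted p under 0.05 there were 2816 genes. Leaving out 1 of the 6 libraries gave between 257 genes (without intact BE replicate 1) and 1129 (without seBE replicate 3). It was 275 without seBE replicate 2 and 358 without intact BE replicate 3, and a fit of the 6 libraries alone gave 337.

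**Figure D1:**
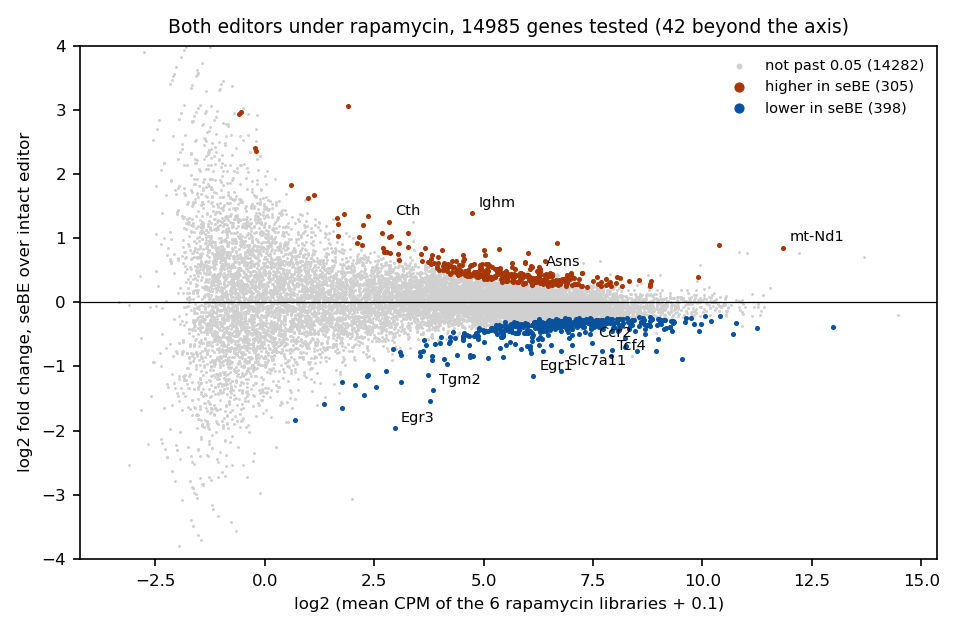
Each point is a gene, with the log2 of its mean CPM over the 6 rapamycin libraries (plus 0.1) on the horizontal axis and the log2 fold change of seBE over intact BE on the vertical axis. Red points are the 305 genes higher in seBE and blue points the 398 lower, at an adjusted p of 0.05; Egr3 lies lowest among the labelled genes and Ighm highest.

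ATF4 is a transcription factor that raises amino acid synthesis and transport genes when amino acids are short or when mTORC1 is active. It binds C/EBP-ATF elements, searched here as TGATGNAA on both strands. Of 12 list members called higher in seBE with a promoter in the RefSeq table, 5 held this motif within 250 bases before and 50 after the start, as did 4 of the 13 other members and 2.82% of 9917 tested genes. The promoters of 3 of the 5 are shown because these genes, an asparagine synthetase, a mitochondrial carboxykinase and a stress-induced pseudokinase, lay on the higher side in seBE. Each runs 5′ to 3′ on the gene's strand (RefSeq, GRCm38.p6), with the motif in capitals. The motif begins 23 bases before the start in Asns (chr6:7693160-7693459, minus strand), 103 before in Pck2 (chr14:55540016-55540315, plus strand, motif read on the opposite strand) and 14 after in Trib3 (chr2:152344011-152344310, minus strand, motif on the opposite strand).
Asns: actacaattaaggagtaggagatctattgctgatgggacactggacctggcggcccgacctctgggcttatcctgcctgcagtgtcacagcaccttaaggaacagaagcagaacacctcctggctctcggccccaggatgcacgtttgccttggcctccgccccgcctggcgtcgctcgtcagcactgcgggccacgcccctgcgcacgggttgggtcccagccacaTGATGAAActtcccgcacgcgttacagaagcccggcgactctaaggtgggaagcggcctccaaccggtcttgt
Pck2: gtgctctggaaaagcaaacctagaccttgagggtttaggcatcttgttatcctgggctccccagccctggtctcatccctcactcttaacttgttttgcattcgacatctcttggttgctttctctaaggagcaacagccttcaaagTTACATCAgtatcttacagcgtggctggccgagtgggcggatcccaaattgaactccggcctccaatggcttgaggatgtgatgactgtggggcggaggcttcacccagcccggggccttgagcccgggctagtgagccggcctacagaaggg
Trib3: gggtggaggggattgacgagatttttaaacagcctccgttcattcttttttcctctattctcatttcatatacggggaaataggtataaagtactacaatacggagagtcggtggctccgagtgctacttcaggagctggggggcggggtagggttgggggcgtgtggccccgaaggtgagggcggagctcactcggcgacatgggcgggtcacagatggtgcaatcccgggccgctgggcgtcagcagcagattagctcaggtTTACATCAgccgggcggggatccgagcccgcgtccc
A match describes these letters only, and no binding was measured.

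Of the 29 measured genes of the ATF4 list, 14 were higher in seBE and 1 was lower, with a median log2 fold change of 0.38 beside 0.0054 over all genes. Atf4 itself stood at 415, 444 and 398 CPM in the seBE libraries and at 311, 348 and 328 CPM in the intact BE libraries (log2 0.35 ± 0.0696 SE, adjusted p = 0.00199). All 3 seBE values were above all 3 intact BE values. Its paralog Atf5 read 43.1, 50.5 and 36.2 CPM in seBE and 32.6, 27.6 and 28.4 CPM in intact BE (log2 0.55 ± 0.114, adjusted p = 0.00306), again without overlap. Serine and one-carbon enzymes were among the higher genes. Mthfd2, a mitochondrial folate enzyme, was at 154, 140 and 145 CPM in seBE and 94.3, 115 and 111 CPM in intact BE (log2 0.46 ± 0.0808, adjusted p = 0.0006). Shmt2, which splits serine in mitochondria, had log2 0.38, Phgdh, the first enzyme of serine synthesis, 0.37, and Psph, the last, 0.48. Psat1, which lies between those enzymes of serine synthesis, was at log2 0.19 with adjusted p = 0.078.

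Asns (ENSMUSG00000029752.13), which makes asparagine, was at 88.4, 92.5 and 91.9 CPM in seBE and 72.3, 60.8 and 63.2 CPM in intact BE (log2 0.47 ± 0.0889, adjusted p = 0.00114). The groups did not overlap. With vehicle the order was the opposite, at a mean of 101 CPM in seBE and 127 in intact BE (log2 -0.33, adjusted p = 0.0313). nCas9 had 157 CPM and the catalytic mutant 98.4. Pck2 (ENSMUSG00000040618.8) was at 104, 118 and 84.7 CPM in seBE and 60.5, 74.2 and 61.9 CPM in intact BE (log2 0.64 ± 0.108, adjusted p = 0.000454), again without overlap. With vehicle Pck2 was at 104 CPM in seBE and 96.6 in intact BE. Cth, which makes cysteine from cystathionine, was low in all libraries, at 8.32, 13.7 and 7.78 CPM in seBE and 4.43, 3.87 and 4.15 CPM in intact BE (log2 1.26 ± 0.247, adjusted p = 0.0025). Of the stress-induced members of the list, Trib3 had log2 1.38, Nupr1 1.62 and Chac1 1.03, all at under 5 CPM in both group means.

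The member that went the other way was Slc7a11, the cystine transporter, which is also a target of NRF2. It read 71.9, 71.8 and 68.1 CPM in seBE and 186, 129 and 130 CPM in intact BE (log2 -1.07 ± 0.154, adjusted p = 0.000576). The vehicle groups had 68.1 and 75.7 CPM, so intact BE under rapamycin was the highest of the 4 editor groups. Sesn2, a leucine sensor that restrains mTORC1 and is induced by ATF4 and p53, was at 37.7, 38.9 and 31.5 CPM in seBE and 24.2, 25.5 and 24.8 CPM in intact BE (log2 0.54 ± 0.103, adjusted p = 0.00141). Among the 20 aminoacyl-tRNA synthetases, which load amino acids onto tRNA, 3 were higher and 0 lower: Yars at log2 0.38, Cars at 0.43 and Tars at 0.26. With vehicle 5 of the 20 were lower in seBE and 0 higher. Gcat, an enzyme of threonine and glycine breakdown, was among the largest rises at 10.7, 15.9 and 12.5 CPM against 4.74, 8.1 and 5.8 CPM (log2 1.07).

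The count of 14 higher ATF4 genes rested in part on single libraries. Without seBE replicate 2 the count was 8, without intact BE replicate 3 it was 9, and with the length and GC trend removed it was 15.

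**Figure D2:**
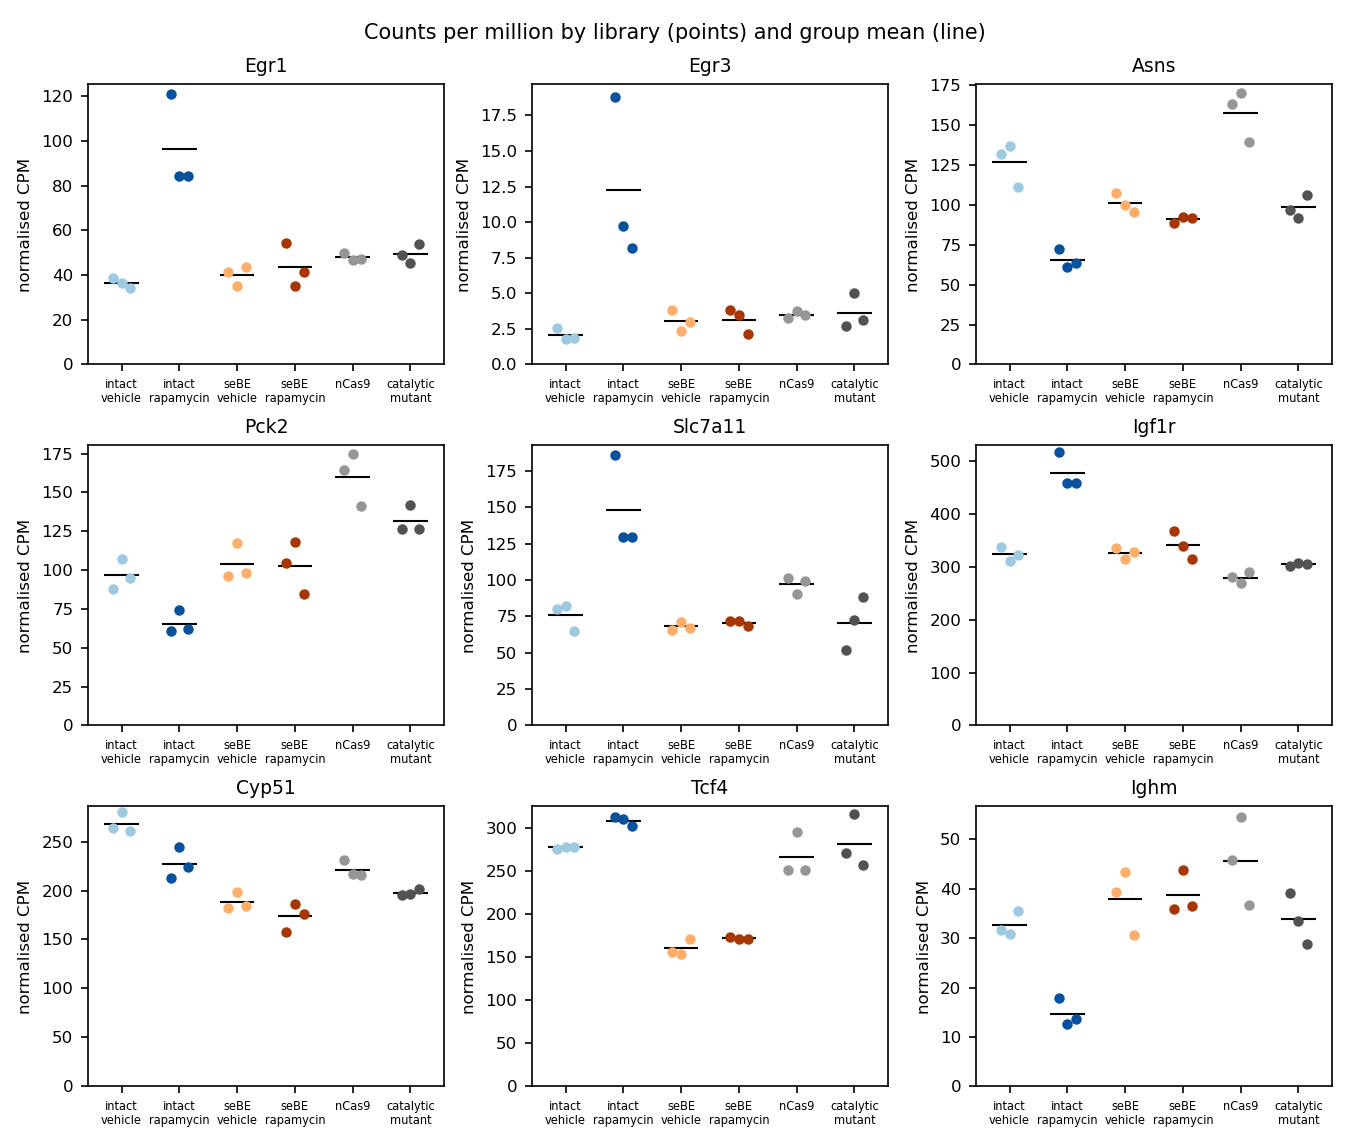
Each panel plots 1 gene, with normalised CPM from 0 on the vertical axis and the 6 groups on the horizontal axis; points are libraries and lines are group means. Egr1, Egr3, Slc7a11 and Igf1r stand high in intact BE with rapamycin, and Asns, Pck2 and Ighm stand low there. Tcf4 is low in both seBE groups. Cyp51 is low in them too, with the catalytic mutant near their level.

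Immediate-early genes are switched on within minutes by growth factor and MAPK signalling. Of 19 measured, 3 were lower in seBE than in intact BE under rapamycin and 0 higher, with a list median of -0.23. Egr1 (ENSMUSG00000038418.8), a zinc finger factor of this class, was at 54.3, 35 and 41.5 CPM in seBE and 121, 84.5 and 84.3 CPM in intact BE (log2 -1.15 ± 0.131, adjusted p = 1.63e-06). The groups were well separated, and all other groups lay near seBE, with means of 36.5 CPM in intact BE with vehicle, 39.9 in seBE with vehicle, 47.9 in nCas9 and 49.4 in the catalytic mutant. Egr3, a relative of Egr1, read 3.85, 3.49 and 2.13 CPM in seBE and 18.8, 9.73 and 8.19 CPM in intact BE (log2 -1.96 ± 0.312, adjusted p = 0.000172). It was the largest fall among genes of at least 5 CPM. Klf6 was lower at log2 -0.54 with adjusted p = 0.0461, a call that ended on leaving out any 1 of 10 libraries. Myc, at 209, 203 and 205 CPM against 222, 228 and 231 CPM, was at log2 -0.14 with adjusted p = 0.216.

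Feedback genes of the RAS and MAPK pathway gave fewer calls. Dusp6, a phosphatase that inactivates ERK, was lower at 103, 94.2 and 100 CPM in seBE against 138, 116 and 109 CPM in intact BE (log2 -0.29 ± 0.0843, adjusted p = 0.0415). It was the only one of 20 members past the threshold, which is near the 4.69% of all genes. Its call ended without intact BE replicate 1 (adjusted p = 0.334) or seBE replicate 2 (0.196). Spry2 was at -0.08, Spred1 at -0.09 and Etv4 at 0.18, none of them called. Nab2, a corepressor that binds EGR factors, was at log2 -0.50 with adjusted p = 0.0032 and was chosen after its values were seen.

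A few growth factor receptor and PI3K genes were lower in seBE. Igf1r, the receptor for insulin-like growth factor, was at 368, 339 and 316 CPM in seBE and 517, 459 and 458 CPM in intact BE (log2 -0.49 ± 0.0692, adjusted p = 2.82e-05). With vehicle both editors were near the seBE level, at means of 326 and 324 CPM. Of the 18 genes of the insulin, IRS and FOXO list, 3 were lower and 0 higher, the other two being the PI3K catalytic genes Pik3cb and Pik3ca at log2 -0.29 (adjusted p = 0.0253) and -0.28 (adjusted p = 0.049999). Kit, the receptor for stem cell factor, was at 128, 129 and 146 CPM against 188, 176 and 192 CPM (log2 -0.46 ± 0.0777, adjusted p = 0.00033). The libraries did not overlap for any of these genes. Unlike Igf1r, Kit and Pik3cb were lower in seBE with vehicle too, at log2 -0.33 (adjusted p = 0.0169) and -0.27 (adjusted p = 0.0473), and Pik3ca was at -0.20 (adjusted p = 0.208). The call of Pik3ca ended on leaving out any of the 6 compared libraries except intact BE replicate 3, and with the length and GC trend removed (adjusted p = 0.367). The call of Pik3cb ended in 6 alternatives, among them without seBE replicate 2 (adjusted p = 0.161) and with the length and GC trend removed (0.113).

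The drug's own pathway gave 2 calls among 24 genes of mTORC1 and its regulators, Sesn2 and Rps6kb2, beside 4.69% of all genes called. Rps6kb2, which encodes an S6 kinase, was at 31.7, 37.5 and 26.3 CPM in seBE and 20.3, 21.4 and 21.9 CPM in intact BE (log2 0.58 ± 0.143, adjusted p = 0.0121), with a like difference under vehicle (log2 0.61). Mtor, the kinase itself, read 71, 61.3 and 62.6 CPM against 67.8, 72.2 and 67.5 CPM (log2 -0.09 ± 0.083, adjusted p = 0.631). Fkbp1a, which encodes FKBP12, read 204, 191 and 182 CPM against 201, 195 and 200 CPM (log2 -0.05 ± 0.0694, adjusted p = 0.793). The groups overlapped for both genes.

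Of 24 genes for cholesterol synthesis and uptake, 9 were lower in seBE under rapamycin and 0 higher, with a median of -0.23. With vehicle 17 were lower and 0 higher, with a median of -0.36. Cyp51 (ENSMUSG00000001467.6), a demethylase of lanosterol, was at 158, 187 and 176 CPM in seBE and 213, 245 and 224 CPM in intact BE (log2 -0.39 ± 0.0726, adjusted p = 0.00111). Sqle, the squalene epoxidase, was at 114, 115 and 134 CPM against 148, 167 and 158 CPM (log2 -0.38), and Sc5d, a sterol desaturase, at 89.9, 90.9 and 108 CPM against 117, 138 and 121 CPM (log2 -0.38). None of these 3 genes overlapped between the groups. Idi1, the isomerase of isoprenoid units, had log2 -0.44 with rapamycin and -0.73 with vehicle. Its means were 101 and 100 CPM in seBE with rapamycin and vehicle, and 137 and 167 CPM in intact BE. In nCas9 and the catalytic mutant Idi1 had 96.4 and 92.9 CPM, Sqle 131 and 130, Cyp51 221 and 198, and Sc5d 132 and 110. For Idi1 and Sqle the 2 intact BE groups were thus the high ones of the 6 groups. Srebf2, which encodes the driving factor, was at log2 -0.33 with rapamycin. Fdps, Mvk, Mvd and Pmvk, enzymes of the mevalonate route, lay between -0.05 and 0.06 and were not called. A sterol element, searched as TCACNCCAC on both strands of the same promoter windows, was held by 0 of 6 members called lower, 1 of the 10 other members and 1.42% of 9917 tested genes.

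Fatty acid genes were mixed. Of 13 measured, 4 were lower and 1 higher. Scd2, a desaturase, was at 412, 491 and 497 CPM in seBE and 543, 653 and 571 CPM in intact BE (log2 -0.34 ± 0.0785, adjusted p = 0.00886), and at log2 -0.72 with vehicle. Elovl5, Acaca and Fads2 were lower by -0.27, -0.26 and -0.29, while the elongase Elovl1 was higher at 0.35. Fasn, the fatty acid synthase, was at -0.22 with adjusted p = 0.067. The sterol count was 3 without seBE replicate 2, 4 without intact BE replicate 2, 5 without intact BE replicate 3 and 6 without seBE replicate 1. The count of lower fatty acid genes was 0 without intact BE replicate 2 and 1 without intact BE replicate 3, seBE replicate 1 or seBE replicate 2.

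**Figure D3:**
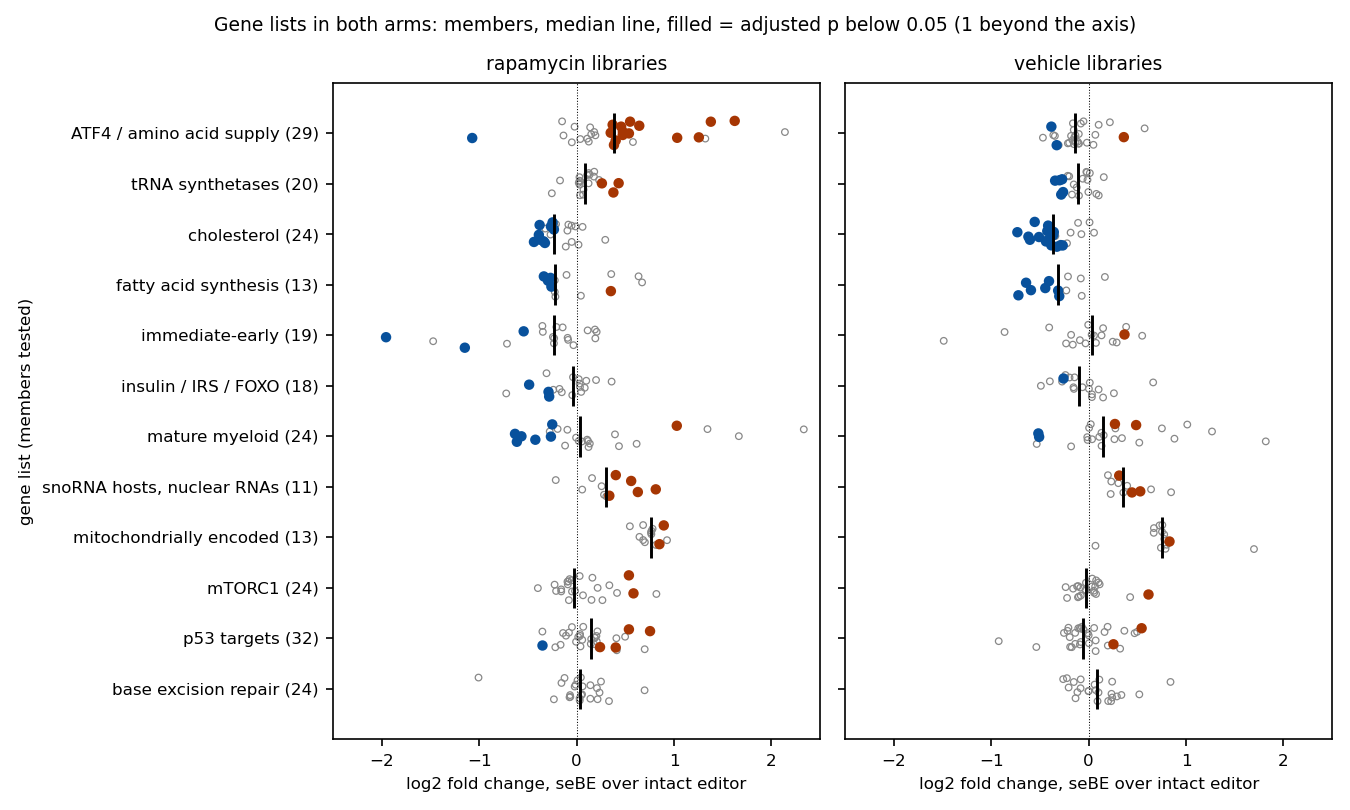
Rows are gene lists with the number of members tested, the horizontal axis is the log2 fold change of seBE over intact BE, and the panels are the rapamycin and the vehicle libraries. Points are genes (filled where the adjusted p is below 0.05) and vertical lines are list medians; the ATF4 list has its median at 0.38 with rapamycin and -0.14 with vehicle, and the cholesterol list at -0.23 and -0.36.

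Myeloid surface and effector genes were mostly lower in seBE where they differed, with 6 lower and 1 higher of 24 measured and a list median of 0.038. Ccr2, a chemokine receptor of monocytes, was at 122, 146 and 153 CPM in seBE and 238, 206 and 209 CPM in intact BE (log2 -0.63 ± 0.089, adjusted p = 2.49e-05), and also lower with vehicle (log2 -0.52). Cybb, the catalytic subunit of the phagocyte oxidase, was at 61.5, 68.3 and 64.2 CPM against 108, 84.8 and 94.2 CPM (log2 -0.57), with -0.51 under vehicle. Both genes were thus lower in seBE in each arm. Itgam, the integrin chain CD11b, was at 153, 163 and 134 CPM against 223, 193 and 186 CPM (log2 -0.42 ± 0.079, adjusted p = 0.00109), and Cd14, a coreceptor for endotoxin, at 49, 32.2 and 33.9 CPM against 65.5, 53.9 and 56.5 CPM (log2 -0.61). With vehicle these genes were at log2 0.15 and 0.00. Cx3cr1, the fractalkine receptor, was the member that was higher, at 9.04, 11.1 and 9.12 CPM against 4.96, 4.13 and 5.22 CPM (log2 1.03). S100a8 and S100a9, abundant granulocyte genes, were at log2 0.44 and 0.62 with adjusted p = 0.72 and 0.61.

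Granule and lineage genes moved in both directions, with 2 of 17 higher and 1 lower. Cst7, a cystatin of granules, was at 79.2, 84.2 and 80.5 CPM in seBE and 45.6, 60.8 and 57.7 CPM in intact BE (log2 0.57 ± 0.098, adjusted p = 0.000399). Irf8, a monocyte lineage factor, was at 78.7, 77.5 and 66.7 CPM against 51.9, 59.2 and 54.5 CPM (log2 0.43 ± 0.0893, adjusted p = 0.0032). Gata2, a factor of progenitors and mast cells, was lower at 101, 89.5 and 86.1 CPM against 120, 128 and 129 CPM (log2 -0.45 ± 0.085, adjusted p = 0.00135). Each of these genes separated the groups. In the MLL-AF9 list 2 of 23 genes were lower, Kit and Cdk6, and 0 higher, beside 2.66% of all genes lower and 2.04% higher. Cdk6, a kinase that drives entry into S phase, was at 1045, 1078 and 1063 CPM against 1376, 1207 and 1313 CPM (log2 -0.29), a call that ended with the length and GC trend removed (adjusted p = 0.205). Hoxa9 was at log2 0.17 with adjusted p = 0.131 and Meis1 at 0.01 with adjusted p = 0.983, both direct MLL-AF9 targets.

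Markers of other cell types were checked beside these genes. Mast cell and basophil genes had 3 of 6 measured members lower in seBE, Kit, Hdc and Gata2, and a summed level of 499 to 514 CPM in the seBE libraries against 658 to 677 CPM in intact BE. The defining mast cell genes Cma1, Fcer1a, Mcpt4, Tpsab1 and Tpsb2 had 0 counts in all 6 libraries. Plasmacytoid and B lineage genes had 1 higher (Ighm) and 1 lower (Tcf4) of 8, summing to 263 to 278 CPM against 376 to 396 CPM, with Pax5, Ms4a1 and Siglech at 0 counts. T and NK genes had 1 lower of 4 (Cd28), summing to 132 to 160 CPM against 207 to 209 CPM, with Cd3d, Cd3e and Cd8a at 0 counts. Itgb3 was the 1 lower gene of 3 megakaryocyte markers, which summed to 58.9 to 65.4 CPM against 93.3 to 105 CPM, with Gp1bb and Gp5 at 0 counts. Tcf4, Cd28 and Itgb3 each made up most of the sum of their list in both groups, so these sums largely repeat single genes. Pdgfrb was the 1 lower gene of 4 stromal markers (666 to 736 CPM against 676 to 718 CPM), with Col3a1 and Dcn at 0 counts, and neither of 2 measured erythroid genes, Tfrc and Klf1, was called by either tool. In bulk RNA, fewer cells of a type and less RNA per cell cannot be told apart.

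Single genes of these marker lists carried some of the firmest differences. Tcf4 (ENSMUSG00000053477.19), an E-protein transcription factor, had the smallest adjusted p of all genes, at 173, 172 and 172 CPM in seBE and 313, 310 and 303 CPM in intact BE (log2 -0.84 ± 0.0762, adjusted p = 9.06e-09). With vehicle it was at a mean of 160 CPM in seBE and 278 in intact BE (log2 -0.79), while nCas9 had 266 CPM and the catalytic mutant 282. The 2 seBE groups were therefore the low ones of the 6. Ighm (ENSMUSG00000076617.10), the heavy chain constant region of IgM, was the largest rise among genes with a symbol and at least 5 CPM, at 35.8, 43.7 and 36.6 CPM against 17.8, 12.7 and 13.7 CPM (log2 1.39 ± 0.149, adjusted p = 2.43e-07). Here intact BE with rapamycin was the low group, since the other 5 group means lay between 32.7 and 45.7 CPM. Cd28, a costimulatory receptor, was at 126, 149 and 151 CPM against 202, 201 and 198 CPM (log2 -0.50), and at -0.58 with vehicle. Itgb3, an integrin chain, was at 49.7, 50.3 and 47.9 CPM against 91.6, 80.5 and 83.3 CPM (log2 -0.79 ± 0.107, adjusted p = 1.33e-05).

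Other large falls were in genes of low level. Tgm2, a transglutaminase, was at 10.6, 7.67 and 5.56 CPM in seBE and 19.4, 17.1 and 25.2 CPM in intact BE (log2 -1.37). Serpinb2, a serpin that inhibits plasminogen activators, read 7.89, 10 and 3.16 CPM against 31.8, 18.2 and 11 CPM (log2 -1.54 ± 0.387, adjusted p = 0.0301), and its call ended without intact BE replicate 1 (adjusted p = 0.108) or seBE replicate 1 (0.0787). Hcar2, a receptor for niacin, had log2 -1.33, Klra2 -1.24, Cd177, a neutrophil surface protein, -1.13, and the kinase gene Pim1 -1.13. The largest rises after Ighm were Fam43a at 1.34, Cth, and Ovgp1 at 1.20. Of 8 called genes with 0 counts in 1 of the 2 groups, 7 were at 0 in intact BE under rapamycin and were at least 11.2- to 20.4-fold higher in seBE, taking 3 counts over the group as the limit that 0 allows. Among them was Enpep, an aminopeptidase, at least 18.4-fold higher with 56 counts in seBE (adjusted p = 0.0292). Another was Asprv1, a protease, at least 12.2-fold higher with 37 counts (adjusted p = 0.0236). Both were named after their values were seen. With vehicle Enpep had 9 counts in seBE and 18 in intact BE, and Asprv1 had 13 and 11. The eighth went the other way. Aldh1a7, an aldehyde dehydrogenase also named after its values were seen, had 0 counts in the 3 seBE libraries and 19 in the intact BE libraries under rapamycin. It was at least 6.43-fold lower in seBE (adjusted p = 0.00843). With vehicle it had 0 counts in seBE and 88 in intact BE.

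Of 11 long nuclear RNAs and noncoding hosts of small nucleolar RNAs, 5 were higher in seBE and 0 lower, with a median of 0.31. With vehicle 3 were higher and 0 lower. Snhg5 was at 75.9, 79.4 and 69.8 CPM in seBE and 49.3, 53.1 and 43.1 CPM in intact BE (log2 0.63 ± 0.0962, adjusted p = 9.61e-05). Gas5 had log2 0.34, Snhg1 0.40, Snhg12 0.56 and Snhg3 0.81. Malat1 and Neat1, long nuclear RNAs, were at -0.21 and 0.26 and not called. The count of 5 fell to 2 without intact BE replicate 1 or 3 or seBE replicate 2, and to 3 without intact BE replicate 2.

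Mitochondrially encoded transcripts held 3.58% ± 0.889 (SD, n = 3) of counts in seBE and 2.11% ± 0.132 in intact BE under rapamycin, a difference of 1.478 percentage points (2-sided exact permutation p = 0.1, the smallest that 3 against 3 can give). All 13 genes had a higher fitted level in seBE, with a median of 0.77, and 2 passed the threshold. mt-Nd1, a subunit of complex I, was at 4051, 6049 and 4117 CPM against 2762, 2616 and 2506 CPM (log2 0.85 ± 0.191, adjusted p = 0.0245), and mt-Nd4 had log2 0.90 with adjusted p = 0.0452. Replicate 2 of seBE was the highest library. Neither gene passed when seBE replicate 2, or any 1 of the intact BE libraries, was left out, while DESeq2 called 7 of the 13. With vehicle all 13 were higher in seBE too, with a median of 0.757 and 1 past the threshold. The share of counts was then 2.66% to 4.10% in seBE and 1.78% to 2.02% in intact BE. It was 4.43% to 5.54% in nCas9 and 3.73% to 5.47% in the catalytic mutant. The 2 intact BE groups were therefore the low ones of the 6. Of 30 nuclear genes of the respiratory chain 4 were higher and 0 lower in seBE under rapamycin, or 1 higher with the length and GC trend removed. Cytosolic ribosomal protein genes, of which 48 were measured, had 0 calls by edgeR (7 at an unadjusted p under 0.05, 2 by DESeq2) and a median of -0.0050 under rapamycin, against 16 higher and 0 lower with vehicle.

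The DNA repair and checkpoint lists gave no calls by edgeR, while some p53 targets passed. None of 24 genes of uracil and base excision repair, 8 of mismatch repair and 29 of homologous recombination, Fanconi and checkpoint pathways passed by edgeR, with 6, 1 and 5 of them at an unadjusted p under 0.05 and 0, 0 and 2 called by DESeq2. Ung, the uracil glycosylase, was at 32, 26.7 and 27.7 CPM in seBE and 29.3, 27.7 and 27.5 CPM in intact BE (log2 0.03 ± 0.128, adjusted p = 0.94). Of 32 p53 targets 4 were higher (Sesn2, Phlda3, Psrc1 and Xpc) and 1 lower (Pmaip1), beside 2.04% higher and 2.66% lower over all genes. Cdkn1a, the p53-induced cell cycle inhibitor, was at 174, 153 and 152 CPM against 151, 163 and 147 CPM (log2 0.06 ± 0.079, adjusted p = 0.774), and Mdm2, the ligase for p53, was at log2 -0.01 ± 0.0709. The groups overlapped for Ung and Cdkn1a. The count of higher p53 targets was 1 without intact BE replicate 1 or 3. Apobec1, the host relative of the editor's deaminase, was at 24.5, 27.9 and 29.8 CPM against 28.5, 23.8 and 23.2 CPM (log2 0.12 ± 0.13, adjusted p = 0.696), and 0 of 6 APOBEC and cofactor genes passed by edgeR, by DESeq2 or at an unadjusted p under 0.05. Interferon-stimulated genes (27), NF-kB genes (18), heat shock genes (13), endoplasmic reticulum chaperones (20), mitosis genes (30) and histones (23) had 0 calls by edgeR in this comparison. At an unadjusted p under 0.05 these lists held 3, 3, 4, 4, 3 and 5 genes in that order, and DESeq2 called 1, 0, 2, 1, 0 and 1. The histones were poorly measured in these poly(A) libraries, with all 23 summing to 48.9 to 83.9 CPM in seBE and 49.3 to 62.9 CPM in intact BE.

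Of 32 autophagy and lysosome genes, 4 were lower in seBE (Map1lc3b, Lamp2, Gabarapl1 and Sqstm1) and 1 was higher (Ctsz). Over all genes 2.66% were lower and 2.04% higher. Lamp2, a lysosomal membrane protein, was at 396, 429 and 497 CPM against 575, 515 and 594 CPM (log2 -0.35 ± 0.0838, adjusted p = 0.0107). Map1lc3b, a core autophagosome protein, was at 108, 93.2 and 94.3 CPM against 121, 129 and 120 CPM (log2 -0.33). Neither gene overlapped between the groups, and the list had 0 calls without seBE replicate 2.

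The vehicle libraries, which share no library with the rapamycin comparison, show how much of the editor difference was present with no drug. There, 598 genes passed (3.99%), 251 higher in seBE (1.68%) and 347 lower (2.32%). Of the genes called under rapamycin, 171 passed in the same direction with vehicle, which is 24.3% of the rapamycin list and 28.6% of the vehicle list, and 2 passed in opposite directions. Of the 703 genes, 620 (88.2%) had the same sign with vehicle, against 63.8% of all genes. The slopes on transcript length differed between the editors in both arms, and their part in this share was not tested. Shared differences included, beside Tcf4, Ccr2 and Cd28, the growth factor gene Angpt1 at log2 -0.76 with rapamycin and -0.55 with vehicle, the maltase gene Mgam at -0.76 and -0.51, and Heg1 at -0.68 and -0.46. Tagap1 was higher at 0.76 and 0.75, the importin gene Ipo4 at 0.56 and 0.60, and Iffo1 at 0.55 and 0.54. With the length and GC trend removed, 318 genes passed with vehicle and 95 in both arms, and without intact BE vehicle replicate 1 these counts were 47 and 25. Tagap1 read 88.6, 84.8 and 68.5 CPM in seBE under rapamycin and 46.8, 53.3 and 42.7 CPM in intact BE.

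**Figure D4:**
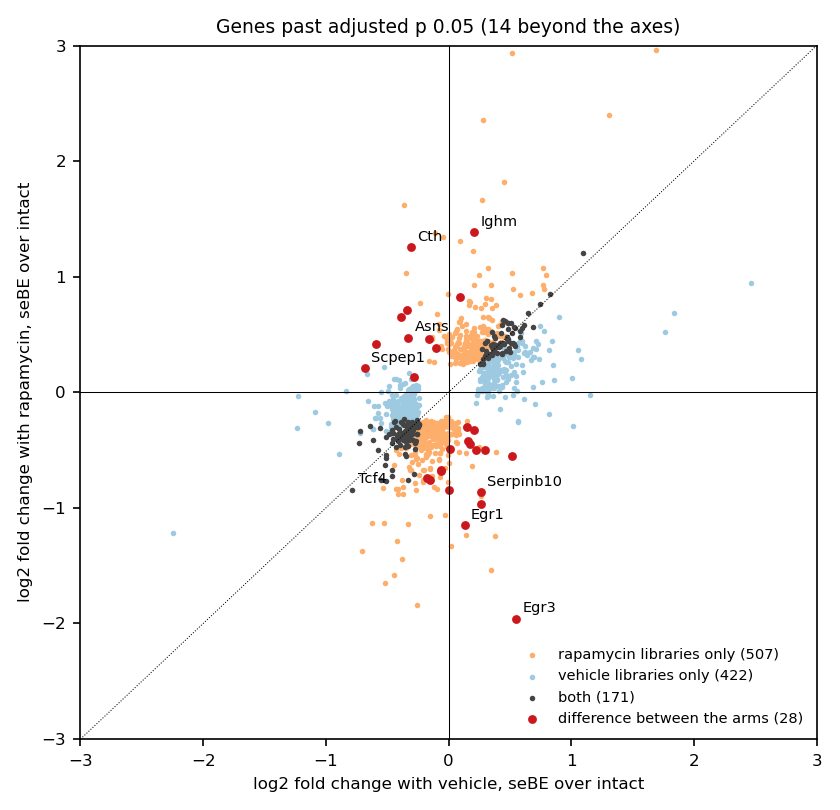
Each point is a gene past an adjusted p of 0.05 in at least 1 test, with the log2 fold change of seBE over intact BE among vehicle libraries on the horizontal axis and among rapamycin libraries on the vertical axis; the dotted line marks equal values. Dark points passed in both arms and lie along the line, as Tcf4 does, while red points are the 28 genes whose difference between the arms passed, such as Egr1, Egr3, Asns and Ighm.

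Whether the editor difference changed with the drug was tested as an interaction. It passed for 28 genes (0.187%), 11 toward higher levels in seBE under rapamycin (0.0734%) and 17 toward lower (0.113%). The count was 76 by DESeq2 or with the length and GC trend removed, and 11 without intact BE rapamycin replicate 1. The interaction reached -1.281 for Egr1 (adjusted p = 0.00176), -2.508 for Egr3 (adjusted p = 0.00564) and 0.802 for Asns (adjusted p = 0.00176). Mthfd2 (0.619), Cth (1.563) and Shmt2 from the ATF4 list passed too, as did the transaminase genes Gpt2 and Bcat1 and the asparaginyl-tRNA synthetase Nars, which were named after their values were seen. Among those toward lower levels, Nt5e, the ectonucleotidase CD73, was at 186, 170 and 194 CPM in seBE and 326, 296 and 300 CPM in intact BE under rapamycin, against vehicle means of 160 and 180 CPM. Plaur, the urokinase receptor, was at 146, 97 and 118 CPM against 190, 161 and 158 CPM, with vehicle means of 123 and 100 CPM. For both genes intact BE with rapamycin was the highest of the 4 editor groups.

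Anxa5, a phospholipid-binding protein, Serpinb10, Itgam, Gata2, Igf1r and Alas1, the first enzyme of heme synthesis, also passed toward lower levels. Anxa5 stood at 158, 149 and 160 CPM against 273, 283 and 235 CPM under rapamycin, and at means of 152 and 169 CPM with vehicle. Scpep1, a serine carboxypeptidase, differed by its vehicle values: means of 29.6 CPM in seBE and 47.6 in intact BE with vehicle (log2 -0.68), and 26.2, 29.9 and 28.2 CPM against 23.1, 26.9 and 22.9 CPM with rapamycin (log2 0.21, adjusted p = 0.328). Only the vehicle groups of Scpep1 stood apart by a test.

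**Figure D5:**
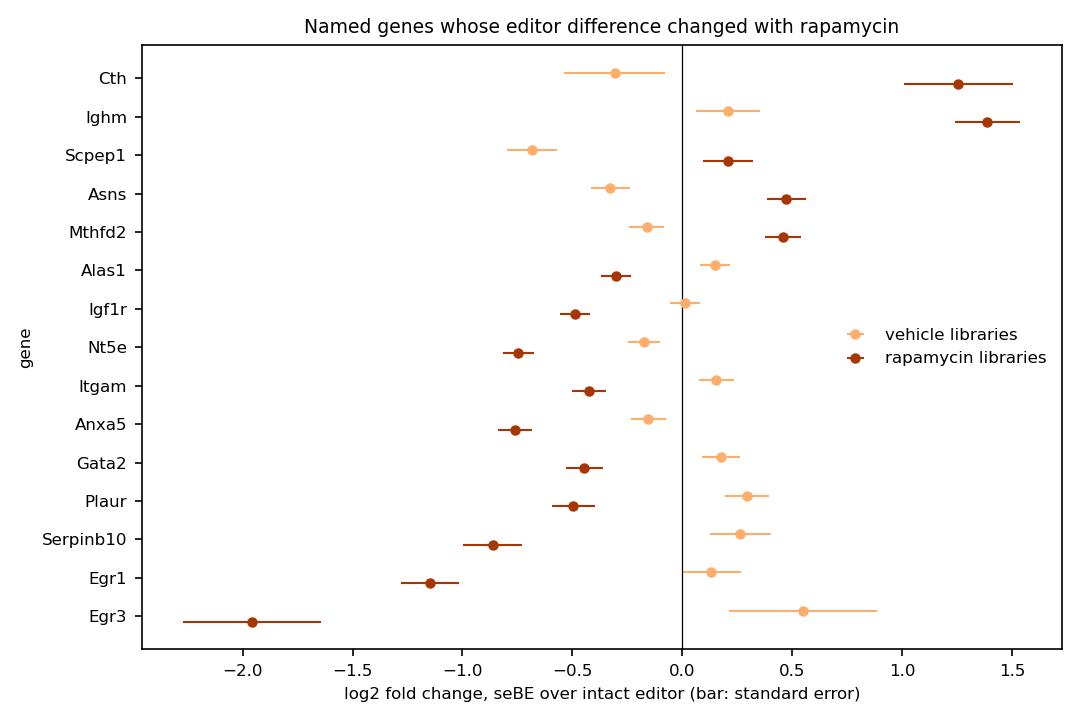
Rows are 15 genes selected by the naming rule whose interaction passed, and the horizontal axis is the log2 fold change of seBE over intact BE. Dark points are the rapamycin libraries, light points the vehicle libraries and bars are standard errors. Cth, Asns and Mthfd2 lie above 0 with rapamycin and below 0 with vehicle, and Egr1, Egr3, Serpinb10 and Plaur the reverse.

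The drug effects within each editor are given beside these values; they share their libraries with the comparisons above and are no separate support. Rapamycin against vehicle in intact BE passed for 497 genes (3.32%), 296 higher (1.98%) and 201 lower (1.34%). In seBE it passed for 0 genes by edgeR, for 1 by DESeq2 and for 493 at an unadjusted p under 0.05. Egr1 changed by log2 1.41 in intact BE and was at 0.13 in seBE, Slc7a11 changed by 0.97 and was at 0.05, and Igf1r changed by 0.56 and was at 0.06. Among ATF4 genes, Asns fell by 0.95 in intact BE and was at -0.15 in seBE, Mthfd2 fell by 0.75 and was at -0.13, and Cth fell by 1.96 and was at -0.40. In the ATF4 list 19 of 29 genes were lower and 1 higher with the drug in intact BE, against 0 and 0 in seBE. Whether a gene's drug effect differed between the editors is the interaction given above, which 28 genes passed, 4 of the 29 ATF4 list genes among them. Slc7a11 did not pass it (log2 -0.92, adjusted p = 0.148).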

How the data were processed

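RNA was sequenced as directional poly(A) libraries from 18 samples in 6 groups of 3. Raw read counts per gene were deposited by the authors. Per the submitters' processing notes the tools were fastp 1.0.1, STAR 2.7.1a, SAMtools 1.9 and featureCounts from Subread 2.0.3, with GRCm39. No source used here gives the annotation release, the strand setting or the treatment of multi-mapping reads, so reads of overlapping or near-identical genes cannot be told apart. Symbols were matched for 52073 of 56748 gene IDs, and the 4675 without one held 2.36% of counts.

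In R 4.3.3, edgeR 4.0.16 kept 14985 genes by filterByExpr (99.93% of counts) and fitted 6 group means over all 18 libraries, with TMM scaling and robust quasi-likelihood tests. Spread between libraries came to 13.3% (the square root of a common dispersion of 0.0176). Adjusted p-values are Benjamini-Hochberg over all genes tested, with a threshold of 0.05. The interaction was (seBE minus intact BE under rapamycin) minus (seBE minus intact BE with vehicle). Lists are described by counts and medians, without a set test. The procedure was tested on simulated data.

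Genes were named by a rule: the 12 largest rises and 12 largest falls past the threshold (at least 5 CPM in the higher group, libraries not overlapping, no predicted names), up to 4 called members per list, up to 10 genes whose interaction passed, up to 8 per direction past the threshold in both arms, and Apobec1, Fkbp1a, Mtor, Cdkn1a, Mdm2, Ung, Myc, Hoxa9 and Meis1. Further list members are given by value, and some genes that the rule selects are not reported here. The comparison, lists and rule were chosen with earlier results of these data known. Alternatives were DESeq2 1.42.0, other filters, the compared libraries alone, a replicate block, removal of mitochondrial and the most abundant genes, removal of a length and GC trend (GENCODE M21 lengths, found for 97.4% of tested genes), thinning to equal depth, and leaving out each library. Coordinates are given only for RefSeq promoters on GRCm38.p6.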

Additional observations from a re-analysis of the deposited data

Results flagged for a closer look

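For 15 genes selected by the naming rule, the difference between seBE and intact BE changed between the vehicle and the rapamycin libraries. This was by the interaction test of edgeR with Benjamini-Hochberg adjustment over all genes tested. Shmt2, Gpt2, Bcat1 and Nars, named above outside the rule, passed too. The values are log2 differences, rapamycin minus vehicle.

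Among amino acid genes, Asns had 0.802, Mthfd2 0.619 and Cth 1.563. The immediate-early genes Egr1 and Egr3 had -1.281 and -2.508, and the receptor gene Igf1r had -0.499. Nt5e had -0.573, Plaur -0.789, Anxa5 -0.606, Itgam -0.579 and Serpinb10 -1.126. Ighm had 1.179, the carboxypeptidase gene Scpep1 0.893, the transcription factor gene Gata2 -0.621 and the heme synthesis gene Alas1 -0.45.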

How the results depend on the processing

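Under rapamycin the count of called genes was 703 (305 higher, 398 lower). It was 1129 without seBE replicate 3 and 257 without intact BE replicate 1, with 100 to 531 higher and 157 to 598 lower over the libraries left out. The compared libraries alone gave 337 (128 and 209). DESeq2 gave 1029 and no filter 885, both within 1.5 times the count. The vehicle count of 598 was 1115 by DESeq2, 945 with no filter, 1790 from the compared libraries alone, 318 with the length and GC trend removed, and 47 (without intact BE vehicle replicate 1) to 978 (without seBE rapamycin replicate 3) with 1 library left out. Calls shared by both arms, 171, were 297 by DESeq2, 297 with no filter, 95 with the trend removed, and 25 to 409 with 1 library left out. The interaction count of 28 was 76 by DESeq2, 66 with no filter, 76 with the trend removed, and 11 to 54 with 1 library left out. The cause of these shifts was not tested.

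Same-numbered seBE and intact BE libraries under rapamycin deviated together only weakly (r = 0.022, 0.02 and 0.046), so the numbers were not taken to pair them, although each library correlated best with its own number. A replicate block gave 1085 genes under rapamycin (491 higher, 594 lower), 1173 with vehicle, 372 in both arms and 65 for the interaction. With the trend removed and a replicate block there were 1237 (505 and 732), 833, 302 and 176.

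Of the named genes, those that changed sign were uncalled throughout. Cdkn1a was at -0.036 with the trend removed, -0.0361 with the replicate block added, and -0.0086 to 0.101 with 1 library left out. Mdm2 was at 0.0146, 0.0144, 0.0101 when thinned, and -0.0306 to 0.0145. With 1 library left out Ung ran from -0.0513 to 0.0812 and Meis1 from -0.0496 to 0.0561. Of 101 genes selected by the naming rule and called under rapamycin, 50 kept the call whichever of the 6 compared libraries was left out. Fewest were kept without seBE replicate 2 (62) and most without its replicate 3 (95). In settings that left out no library, 72 of 1229 values of the genes selected lost their call and 4 gained one. The share of mitochondrial counts differed by 0.967 to 1.77 points with 1 library left out. At this depth and with 3 libraries a group, the smallest difference called was 0.215 on the log2 scale, which is not a detection limit. In simulated data for the rapamycin comparison, each size of change was given to 50 genes. Of these, 54% were called at 1.5-fold, 60% at 2-fold and 66% at 4-fold. Among 14785 genes left unchanged in the simulation, 8 were called. Fewer genes were changed there than were called in the data. At the smallest size simulated, which was below 1.5-fold, 8% were called. A list with 0 calls is therefore no evidence that its genes were unchanged.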
